A study of Mus musculus with 4 samples.

Results

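Interferon response and antigen presentation genes were followed in 2 mouse neural stem cell lines. NSCL61 is labelled as resembling glioma-initiating cells, and its derivative NSCL61-sox11 was made to express the transcription factor Sox11 and no longer formed tumours after transplantation, by the series' own description. The group holds 58 listed genes: interferon receptors, the STAT and IRF factors below them, antiviral and RNA-sensing genes, and the machinery of MHC class I. A gene was included when an array probe set was annotated to it and to no other gene, and the probe set with the highest mean of the 4 arrays stood for it. This gave 55 of the 58 genes, out of 18193 named genes on the array; Isg15, H2-T23 and Psme2 have only probe sets annotated to several genes and are not described. Of the 55, 50 were above the level filter and entered the test among 13084 genes, and Oasl2, Usp18, Mx1, Iigp1 and Nlrc5 were below it.

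Both lines are p53-/- cells of C57BL/6 mice that came from the telencephalon at embryonic day 14.5 and grew as floating spheres in serum-free medium with basic FGF, PDGF, insulin and forskolin, per the labels. The labels name no added gene for NSCL61 and Sox11 expression for NSCL61-sox11. They do not say which vector or promoter drives Sox11. Each line was measured on 2 Affymetrix arrays, and each line is 1 line of cells. The labels do not tell whether both arrays of a line hold separately grown cells. The p-values therefore rest on array-to-array spread that may be technical, and so few arrays limit the precision.

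Interferons bind paired receptor chains at the cell surface, Ifnar1 and Ifnar2 for type I and Ifngr1 and Ifngr2 for type II. Janus kinases on these chains phosphorylate STAT proteins. Type I signalling sends a complex that holds Stat2 and Irf9 to the interferon-stimulated response element (ISRE), and type II signalling sends STAT dimers to the gamma-activated sequence (GAS). Their targets block viral replication and raise MHC class I, which shows peptides from the proteasome to T cells. Neural stem cells of the embryonic brain are known for low levels of MHC class I.

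The promoters were searched for the ISRE and GAS cores. The genes were listed for their known roles, so the shares describe the list and are not a result of these arrays. The ISRE core was searched as GAAANNGAAA and the GAS core as TTCNNNGAA, on both strands of the 250 bases before the annotated start, in RefSeq promoters of build GRCm38.p6; 50 of the 58 genes were searched. The ISRE core was in 15 of these 50 (30%) and in 936 of 27025 genes with a window (3.46%). The GAS core was in 12 of 50 (24%) and in 2197 of 27025 (8.13%). The GAS core reads the same on both strands and was counted once. Overlapping matches, as in Irgm1, were counted as separate sites of 1 gene. All 4 GTPase genes searched (Gbp2, Gbp3, Igtp and Irgm1) held the ISRE core, as did B2m, Ifit1 and Ifit3; none of the 4 receptor genes and none of the 7 genes of peptide supply and loading that were searched did. A match is a description of the letters only. The 160 bases before the start are printed 5′ to 3′ on the gene's strand for 6 genes with an ISRE core whose values are set side by side further on, with the matches to either core in capitals. In Gbp2, Ifit1 and Ifit3 the ISRE core is on the opposite strand, so the capitals there are its reverse complement.
Gbp2, chr3:142620503-142620662, plus strand: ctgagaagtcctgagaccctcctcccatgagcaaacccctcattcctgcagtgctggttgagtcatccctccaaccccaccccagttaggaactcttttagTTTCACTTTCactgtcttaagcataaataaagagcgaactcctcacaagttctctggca
Irgm1, chr11:48871421-48871580, minus strand: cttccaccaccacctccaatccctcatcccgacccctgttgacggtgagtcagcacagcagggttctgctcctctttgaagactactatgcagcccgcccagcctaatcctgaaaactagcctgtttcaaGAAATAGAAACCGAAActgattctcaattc
Igtp, chr11:58199396-58199555, plus strand: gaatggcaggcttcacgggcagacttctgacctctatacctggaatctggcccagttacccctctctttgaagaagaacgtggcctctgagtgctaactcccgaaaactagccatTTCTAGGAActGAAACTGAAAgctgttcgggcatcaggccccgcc
B2m, chr2:122147527-122147686, plus strand: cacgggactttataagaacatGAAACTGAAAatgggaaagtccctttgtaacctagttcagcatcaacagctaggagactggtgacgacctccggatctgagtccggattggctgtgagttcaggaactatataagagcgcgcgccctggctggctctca
Ifit1, chr19:34640729-34640888, plus strand: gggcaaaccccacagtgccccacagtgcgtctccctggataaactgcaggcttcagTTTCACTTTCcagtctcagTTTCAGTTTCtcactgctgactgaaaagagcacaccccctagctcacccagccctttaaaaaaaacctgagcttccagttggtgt
Ifit3, chr19:34583369-34583528, plus strand: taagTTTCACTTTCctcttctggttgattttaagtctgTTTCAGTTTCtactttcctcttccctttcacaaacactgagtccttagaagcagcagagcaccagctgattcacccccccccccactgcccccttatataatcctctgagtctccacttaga
In Irgm1 the matches run from base 30 to base 15 before the start, and in Gbp2 from base 59 to base 50. In Igtp a GAS core (bases 45 to 37) lies next to an ISRE core (bases 34 to 25). Ifit1 and Ifit3 each carry 2 separate cores on the reverse strand. Among the 10 genes that changed between the lines, 3 held the ISRE core (B2m, Gbp2 and Irgm1) and 1 the GAS core (Irf1), and among 36 tested genes that did not pass and have a window, 10 held the ISRE core and 11 the GAS core.

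Some of these genes rose in NSCL61-sox11, and none passed the test downwards. At a limma adjusted p under 0.05, 10 of 50 rose (20%), 0 fell and 40 did not pass; at an unadjusted p under 0.05, 16 were higher and 2 (Ifit3 and Isg20) lower; over all tested genes 10.0% rose, 9.19% fell and 19.2% changed in either direction. The genes were listed with earlier results of these data known, so these shares describe the list and cannot test for an excess. The 10 that rose were Ifngr1, Ifngr2, Stat3, Irf1, Ddx58, Trim21, Gbp2, Irgm1, B2m and Tapbp. Gbp2 passed the level filter only through its NSCL61-sox11 arrays. The median log2 fold change of the 50 genes was 0.11, against -0.02 for all tested genes, with 35 above 0 and 15 below. Both NSCL61-sox11 arrays lay above both NSCL61 arrays in 18 of 50 genes (36%), where 29.3% of all genes did so, and below them in 12 of 50 (24%), where 32.9% did. Scaling on the poly-A controls lowered all log2 fold changes and took the median of all genes to -0.38. That lowering was smaller than each of the 10 rises, so all 10 stayed above 0. B2m, Irf1, Ifngr1 and Trim21 stood at only 0.05, 0.05, 0.08 and 0.12. Of the 10, 2 (Gbp2 and Irgm1) were still called, and Ifit1, Ifit3 and Isg20 were called downwards. This fit called 14.9% of all genes. It had 54040 degrees of freedom against 6.36 in the main fit, so its calls are not comparable with the main ones. With 1 array left out a line has 1 array, so only log2 fold changes follow here. Without NSCL61-sox11 array 2 the median of the 50 genes was 0.03, with Ifit1 at -1.185, Ifit3 at -1.02 and Ifitm1 at -0.58. Without NSCL61-sox11 array 1 the median was 0.246. Ifi27 then stood at 0.73, Ifi35 at 0.50, Ifitm3 at 0.30, Igtp at 1.14, Irf9 at 0.57 and Irf1 at 0.36. Without NSCL61 array 1 or NSCL61 array 2 fewer genes passed, among the 50 and among all tested genes.

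**Figure D1:**
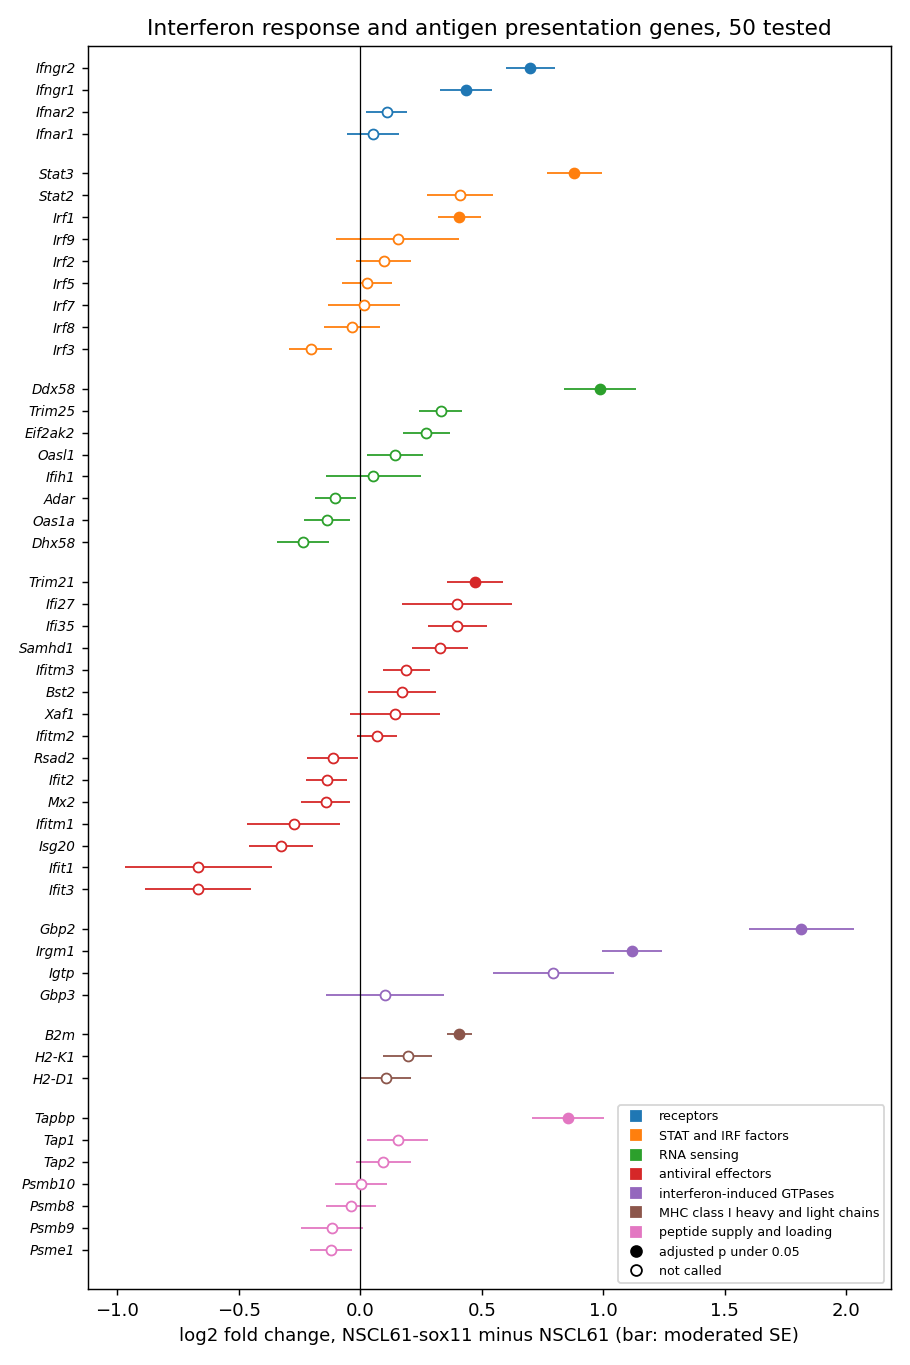
Log2 fold changes (NSCL61-sox11 minus NSCL61, x axis) of the 50 tested genes, grouped and coloured by role; bars are moderated standard errors, filled points have an adjusted p under 0.05. The 10 filled points all lie to the right of 0, from 0.41 for B2m to 1.82 for Gbp2, and the lowest values are those of Ifit1 and Ifit3 at -0.67.

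The libraries bore on these values as follows. Sox11 itself lay at 5.09 and 4.82 on the NSCL61 arrays and at 7.74 and 7.97 on the NSCL61-sox11 arrays. Across tested probe sets, Pearson's r was 0.995 and 0.994 within the lines and 0.968 to 0.972 between them. Of the microglia and blood cell markers, 0 of 7 tested were called (the lowest adjusted p was 0.37), 6 of the 13 with a probe set, among them Ptprc, Itgam and Cx3cr1, were below the level filter, and the summed level of the 13 was 9.83 to 9.84 in NSCL61 and 9.79 to 9.86 in NSCL61-sox11 (log2). Of 3 endothelial markers tested 0 were called, with Cdh5 at an adjusted p of 0.053, and the summed level of that list was 7.58 to 7.84 in NSCL61 and 7.58 to 7.68 in NSCL61-sox11. Of 10 neural stem and progenitor markers, 6 were tested, Sox2, Pax6 and Vim fell, Nes, Msi1 and Hes5 did not pass, and Sox1, Fabp7, Prom1 and Olig2 were below the filter. Of 6 markers of fibroblasts and meninges, 5 were tested, Col1a1, Col1a2 and Pdgfrb rose, Col3a1 and Dcn did not pass, and Lum was below the filter. The summed level of the 6 was 9.97 and 10.76 on the NSCL61 arrays and 11.45 and 12.29 on the NSCL61-sox11 arrays. The part of these markers in the results below was not tested. In such bulk samples more cells of a type and more RNA per cell cannot be told apart.

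Both chains of the interferon gamma receptor rose, and the chains of the type I receptor did not pass. Ifngr2, the signalling chain that carries Jak2, measured 7.47 and 7.59 on the NSCL61 arrays and 8.29 and 8.17 on the NSCL61-sox11 arrays (log2 level). The lines did not overlap, and the rise was 1.62-fold (log2 fold change 0.70, SE 0.10, adjusted p = 0.0069). A second probe set gave 0.68 (adjusted p = 0.0069). Ifngr1, the chain that binds the cytokine and carries Jak1, measured 7.87 and 7.68 in NSCL61 and 8.16 and 8.25 in NSCL61-sox11, a 1.35-fold rise (0.43, SE 0.11, adjusted p = 0.038). Ifnar1 measured 8.14 and 8.26 against 8.16 and 8.35, so that its arrays overlapped (0.05, SE 0.11, adjusted p = 0.78). Ifnar2 measured 8.55 on both NSCL61 arrays and 8.65 and 8.66 on the others (0.11, SE 0.08, adjusted p = 0.45). Ifnar1 and Ifngr2 are next to each other on chromosome 16 in the RefSeq gene table. Ifngr1 no longer passed without NSCL61 array 1 (0.53), NSCL61 array 2 (0.34) or NSCL61-sox11 array 2 (0.39), nor Ifngr2 without NSCL61 array 1 (0.64). In such fits the spread of the lone array is taken from the other line, so only log2 fold changes are given. With quantile normalization Ifngr1 also missed the threshold (0.42, adjusted p = 0.053). Over all 14 alternatives the adjusted p ran from 0.00046 to 0.81 for Ifngr1 and from 2.1e-07 to 0.32 for Ifngr2. Here and wherever such a range is given below, the low end came from the replicate block and the high end from poly-A scaling. Those fits had 40.2 and 54040 degrees of freedom against 6.36 in the main fit, so neither end is comparable with the main p-values.

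Among the 9 STAT and IRF factors, 2 rose (22.2%, where 10.0% of all tested genes did), none fell and 7 did not pass. Stat3, which acts mainly below cytokines of the interleukin-6 family, measured 8.49 and 8.60 in NSCL61 and 9.30 and 9.55 in NSCL61-sox11. Both NSCL61-sox11 arrays lay above both others, with a 1.84-fold rise (0.88, SE 0.11, adjusted p = 0.0044). A second Stat3 probe set rose by 0.65 (adjusted p = 0.011) and the third tested one, at 5.37 and 5.29 against 5.57 and 5.48, did not pass (adjusted p = 0.27). Irf1, the interferon gamma-induced factor that switches on MHC class I and Gbp genes, measured 8.75 and 8.67 in NSCL61 and 9.16 and 9.07 in NSCL61-sox11, a 1.33-fold rise (0.41, SE 0.09, adjusted p = 0.026). Irf1 no longer passed without the first (log2 fold change 0.45) or second (0.37) NSCL61 array or without NSCL61-sox11 array 1 (0.36). Its adjusted p ran from 0.00024 to 0.87 over its alternatives. Stat3 stood at 0.76 to 1.01 with each single array left out. It did not pass with poly-A scaling (adjusted p = 0.134, range from 4.7e-11 to 0.134).

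The other factors did not pass. Stat2, a factor of type I signalling, measured 6.13 and 5.81 against 6.32 and 6.44 (0.41, SE 0.14, adjusted p = 0.092), with no overlap and a second probe set at 0.41 (adjusted p = 0.084). Irf9, the DNA-binding part of the same complex, measured 6.64 and 6.57 in NSCL61 and 6.34 and 7.18 in NSCL61-sox11, so that the arrays of the second line enclosed those of the first. Irf3, the factor activated by RNA and DNA sensors, measured 9.21 and 9.15 against 9.03 and 8.92 (-0.20, SE 0.09, adjusted p = 0.17). Irf2, Irf5, Irf7 and Irf8 had log2 fold changes between -0.03 and 0.10, with adjusted p from 0.62 to 0.96. Irf7 amplifies the type I response and Irf8 belongs to myeloid and lymphoid cells; their levels were 5.28 to 5.65 and 5.28 to 5.46 over the 4 arrays, close to the filter at 5.15.

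**Figure D2:**
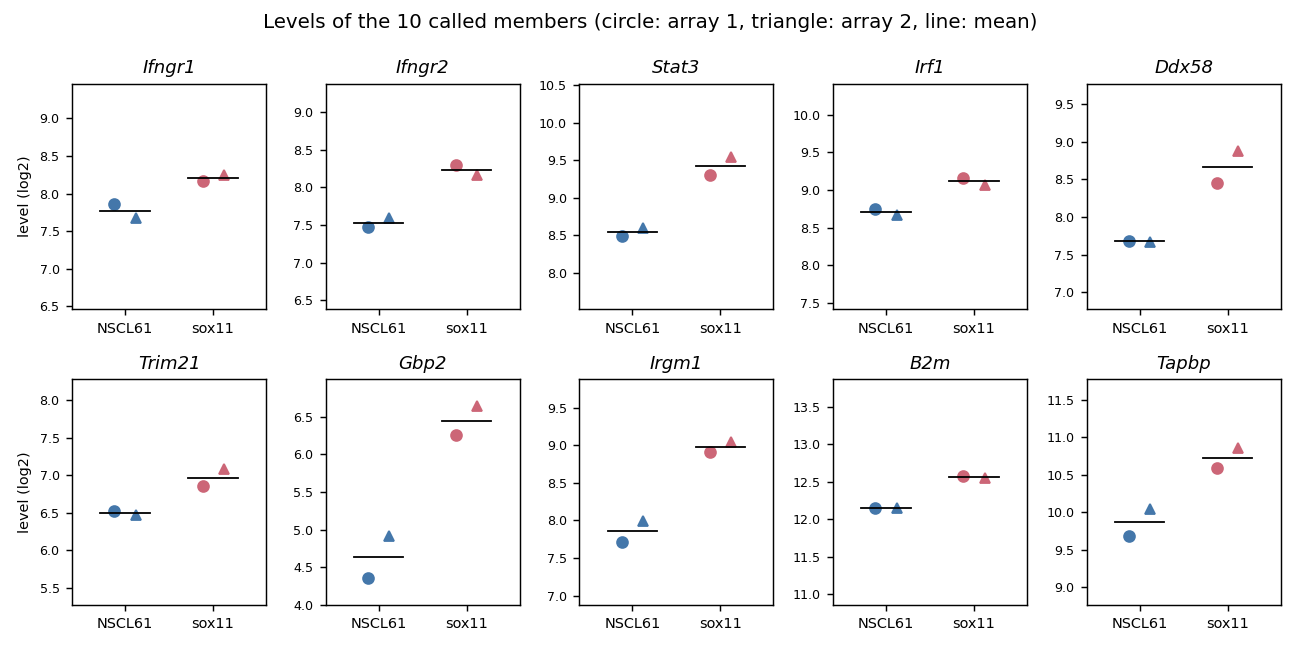
Deposited log2 level (y axis) of the 10 genes that rose, by line (x axis, where sox11 is NSCL61-sox11), with a circle for array 1, a triangle for array 2 and a line at the mean; each panel spans the same range of levels. In every panel both NSCL61-sox11 arrays lie above both NSCL61 arrays, by a wide margin for Gbp2 and Irgm1 and a narrow one for Irf1 and Ifngr1.

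Of the 8 RNA-sensing genes tested, 1 rose (12.5%), close to the 10.0% of all tested genes. Ddx58, which encodes the cytosolic RNA helicase RIG-I, measured 7.68 and 7.67 in NSCL61 and 8.45 and 8.88 in NSCL61-sox11. The NSCL61 arrays were nearly equal and the others lay apart from them and from each other, with a 1.98-fold rise (0.99, SE 0.15, adjusted p = 0.0079). Its second tested probe set rose by 1.41, from 5.42 and 5.24 to 6.56 and 6.92 (adjusted p = 0.0022). On the first probe set Ddx58 no longer passed without either NSCL61 array (log2 fold change 0.99 without array 1 and 0.98 without array 2). Its adjusted p ran from 8.7e-11 to 0.087 over its alternatives.

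The relatives and partners of Ddx58 did not pass. Ifih1, the helicase MDA5, measured 6.69 and 6.83 against 6.52 and 7.11 (0.05, SE 0.20, adjusted p = 0.89). Dhx58, the helicase LGP2 that lacks signalling domains, measured 5.48 and 5.47 against 5.16 and 5.31 (-0.24, SE 0.11, adjusted p = 0.19). Trim25, a ubiquitin ligase for RIG-I, measured 8.42 and 8.49 against 8.76 and 8.81. Its arrays did not overlap and it missed the threshold narrowly (0.33, SE 0.09, adjusted p = 0.0501); it passed with quantile normalization (0.047) and with the brightest 40% of probe sets (0.040). Eif2ak2, the double-stranded RNA kinase PKR, measured 7.66 and 7.76 against 7.94 and 8.03 (0.27, SE 0.10, adjusted p = 0.107). Adar, which edits double-stranded RNA, and Oas1a and Oasl1, of the oligoadenylate synthetase family, had log2 fold changes of -0.10, -0.14 and 0.14, with adjusted p from 0.38 to 0.47. Oasl2, below the filter, measured 4.53 and 5.22 in NSCL61 and 4.09 and 5.26 in NSCL61-sox11.

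Trim21 alone passed among the 15 antiviral effectors above the filter (6.67%, where 10.0% of all tested genes rose). Trim21, a cytosolic antibody receptor and ubiquitin ligase, measured 6.52 and 6.47 against 6.85 and 7.08, a 1.39-fold rise (0.47, SE 0.11, adjusted p = 0.037). The second Trim21 probe set rose by 0.66 (adjusted p = 0.0094). The first no longer passed without either NSCL61 array (log2 fold change 0.50 and 0.45) or without NSCL61-sox11 array 2 (0.36). With quantile normalization it also missed the threshold (0.42, adjusted p = 0.051). Over its alternatives the adjusted p ran from 0.00069 to 0.73. Samhd1, which degrades deoxynucleotides, did not pass on its brightest probe set at 9.77 and 9.49 against 10.02 and 9.89 (0.33, SE 0.12, adjusted p = 0.106). Of its 4 other tested probe sets 2 rose, 1 of them by 0.68 from 9.17 and 9.11 to 9.85 and 9.79 (adjusted p = 0.0035). The other rose by 0.52 from 5.08 and 5.09 to 5.74 and 5.47 (adjusted p = 0.036). Its NSCL61 levels are below the lowest tested mean of 5.15, so it passed the filter only through its NSCL61-sox11 arrays. Counting every tested probe set of these genes, 18 of 83 rose (21.7%) and 0 fell, where 8.99% of all tested probe sets rose and 8.32% fell. The 18 belonged to 11 genes, the 10 above and Samhd1. They include that Samhd1 probe set and both Gbp2 probe sets, which passed the level filter only through their NSCL61-sox11 arrays.

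Ifit1 and Ifit3 had the lowest log2 fold changes of the 50 genes. They and Ifit2 are classical type I targets whose products bind viral RNA, and they lie together on chromosome 19. Ifit1 measured 8.35 and 8.32 in NSCL61 and 7.15 and 8.19 in NSCL61-sox11, and Ifit3 8.82 and 8.88 against 7.83 and 8.54. All NSCL61-sox11 values lay below all NSCL61 values, but for both genes array 1 of NSCL61-sox11 was far below array 2. Neither passed (Ifit1 -0.67, SE 0.30, adjusted p = 0.19; Ifit3 -0.67, SE 0.22, adjusted p = 0.086). Without NSCL61-sox11 array 2 the log2 fold changes were -1.185 for Ifit1 and -1.02 for Ifit3. Without NSCL61-sox11 array 1 they were -0.15 and -0.31. Ifit2 measured 9.37 and 9.45 against 9.23 and 9.31 (-0.14, SE 0.08, adjusted p = 0.33), with arrays of a line close together.

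Isg20, an exonuclease, measured 9.43 and 9.09 against 8.86 and 9.01 (-0.33, SE 0.13, adjusted p = 0.15). It stood at -0.16 without NSCL61 array 1 and at -0.49 without NSCL61 array 2, and did not pass with any single array left out. Rsad2 (viperin) and Mx2, a dynamin-like GTPase, also had both NSCL61-sox11 arrays below both NSCL61 arrays, by 0.11 and 0.14 on average (adjusted p = 0.52 and 0.40). Ifitm1, Ifitm2 and Ifitm3, membrane proteins that block viral entry and are neighbours on chromosome 7, were among the bright probe sets. Ifitm1 measured 12.39 and 12.65 against 11.94 and 12.55, Ifitm2 11.68 and 11.87 against 11.79 and 11.89, and Ifitm3 12.22 and 12.40 against 12.38 and 12.61. In all 3 the lines overlapped, and the adjusted p was 0.39, 0.62 and 0.24. Ifi35 measured 8.85 and 9.11 against 9.28 and 9.47 (0.40, SE 0.12, adjusted p = 0.072), with its other probe sets at 0.32 and 0.35. Ifi27, Bst2 (tetherin) and Xaf1 had log2 fold changes of 0.40, 0.17 and 0.14 with overlapping arrays (adjusted p from 0.29 to 0.66). Usp18, which removes Isg15 from proteins and damps the type I receptor, lay below the filter at 4.68 and 5.24 against 4.43 and 5.88, and Mx1 lay at 3.72 to 4.10.

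**Figure D3:**
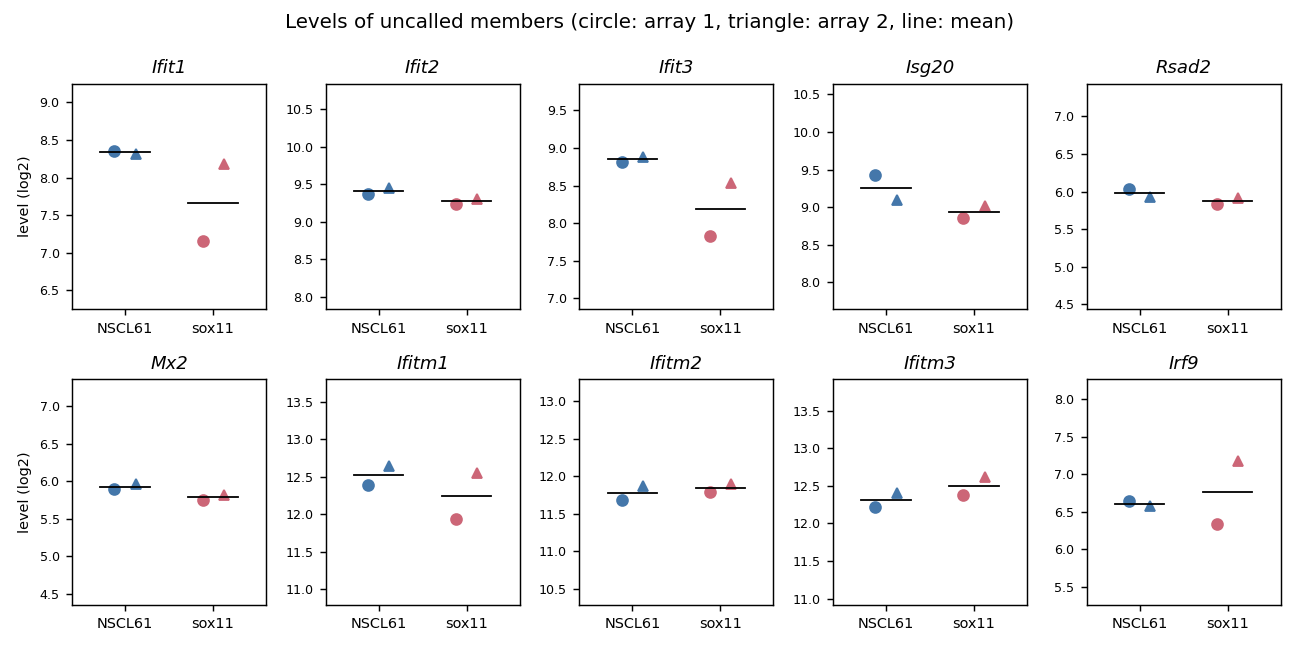
Deposited log2 level (y axis) of 10 genes that did not pass, by line (x axis, where sox11 is NSCL61-sox11), with a circle for array 1, a triangle for array 2 and a line at the mean; each panel spans the same range. In Ifit1, Ifit3, Ifitm1 and Irf9 the NSCL61-sox11 arrays are farther apart than the NSCL61 arrays, with array 2 higher.

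Of 4 interferon-induced GTPase genes tested 2 rose (50%, where 10.0% of all tested genes did), Gbp2 and Irgm1. These had the highest log2 fold changes of the 50 genes. The GTPases act on membranes around intracellular pathogens. Gbp2, a guanylate-binding protein, measured 4.35 and 4.92 in NSCL61 and 6.26 and 6.65 in NSCL61-sox11. The lines were well apart, with a 3.52-fold rise (1.82, SE 0.22, adjusted p = 0.0035), and a second probe set rose by 1.69 (adjusted p = 0.0052). The NSCL61 mean of 4.64 is below the lowest tested mean of 5.15, so the size of this rise is uncertain. The second probe set measured 4.11 and 4.71 against 5.90 and 6.29. Both passed the level filter only through their NSCL61-sox11 arrays, so the place of Gbp2 among the tested genes depends on its rise. Irgm1, an immunity-related GTPase that regulates the others, measured 7.71 and 8.0 against 8.90 and 9.04, a 2.17-fold rise (1.12, SE 0.12, adjusted p = 0.0026). Gbp2 and Irgm1 were called under every alternative that gave them a value, 13 for Gbp2 and 14 for Irgm1, with log2 fold changes of 1.46 to 2.10 and 0.76 to 1.26; the alternative without probe sets whose names end in _x_at, _s_at or _a_at moved Gbp2 to its second probe set.

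Igtp, a second immunity-related GTPase gene, measured 6.46 and 6.90 against 7.13 and 7.82 (0.79, SE 0.25, adjusted p = 0.078). Its lines did not overlap, array 2 was the higher in both, and its log2 fold change was 1.14 without NSCL61-sox11 array 1. Gbp3, separated from Gbp2 by 1 coding gene on chromosome 3, measured 5.42 and 5.67 against 5.27 and 6.02 (0.10, SE 0.24, adjusted p = 0.82). Iigp1 was below the filter at 4.20 and 4.63 against 4.46 and 4.83. The 4 GTPase genes tested, whose promoters all hold the ISRE core, thus had log2 fold changes of 0.10 to 1.82. Of the other tested genes with that core, B2m and Stat2 both stood at 0.41, Ifit1 and Ifit3 at -0.67, and Bst2, Irf2, Ifitm2, Rsad2 and Oas1a between -0.14 and 0.17.

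In antigen presentation, the light chain of MHC class I and a loading factor rose, and the heavy chains, transporter and immunoproteasome genes did not pass. B2m, which encodes beta-2 microglobulin, measured 12.15 on both NSCL61 arrays and 12.57 and 12.55 in NSCL61-sox11. The arrays of a line agreed closely, and the rise was 1.33-fold (0.41, SE 0.05, adjusted p = 0.0043), with a second probe set at 0.46 (adjusted p = 0.0031). Without either NSCL61 array the log2 fold change of B2m stayed at 0.41 but no longer passed. Poly-A and hybridisation control scaling lowered all genes by 1 offset each. There B2m stood at 0.05 and 0.19 and did not pass (adjusted p = 0.86 and 0.361, in a range that starts at 1.5e-07). Tapbp, which encodes tapasin and links class I molecules to the peptide transporter, measured 9.68 and 10.05 against 10.58 and 10.86, a 1.81-fold rise (0.85, SE 0.15, adjusted p = 0.012). A second Tapbp probe set, at 8.06 and 8.37 against 8.55 and 8.88, did not pass (0.50, SE 0.15, adjusted p = 0.074). Tapbp no longer passed without NSCL61 array 1 (log2 fold change 0.67) or with poly-A scaling (adjusted p = 0.137). Its adjusted p ran from 1.5e-12 to 0.137.

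The heavy chain genes H2-K1 and H2-D1 measured 8.83 and 8.65 against 8.90 and 8.98, and 9.08 and 8.86 against 9.10 and 9.05. Neither passed (0.20, adjusted p = 0.24, and 0.11, adjusted p = 0.54), and 0 of their 7 tested probe sets were called, with values of 0.11 to 0.29. Most of these probe sets have names ending in _x_at, and class I genes are close copies of each other, so which heavy chain they measure is uncertain. The transporter genes Tap1 and Tap2 measured 5.84 and 5.91 against 5.89 and 6.17, and 6.04 and 6.00 against 6.22 and 6.01 (0.15 and 0.09, adjusted p = 0.47 and 0.63). The immunoproteasome subunit genes Psmb8 and Psmb9 were near the filter, at 5.26 to 5.34 and 5.34 to 5.64, with log2 fold changes of -0.04 and -0.12 (adjusted p = 0.84 and 0.59). Psmb10 measured 8.83 and 8.60 against 8.75 and 8.68, and the proteasome activator gene Psme1 9.47 and 9.61 against 9.44 and 9.41 (adjusted p = 0.99 and 0.41). Psmb9, Tap1, Psmb8 and Tap2 are consecutive coding genes on chromosome 17, and the windows of Tap1 and Psmb9, on opposite strands, share 275 of 300 bases. Nlrc5, the transactivator of class I genes, was below the filter at 3.82 to 4.09.

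Arrays of the same line differed in these genes in a way that touches several of the values above. In NSCL61-sox11, array 2 was higher than array 1 by over 0.5 log2 units in 8 of 50 genes (16%) and lower by as much in none; over all tested genes 3.21% differed by over 0.5 in either direction. The 8 were Ifit1, Irf9, Gbp3, Ifit3, Igtp, Ifi27, Ifitm1 and Ifih1. Array 2 was the higher in 39 of 50 genes in NSCL61-sox11 (78%, against 46.7% of all genes), 14 of 15 among the antiviral effectors, and in 30 of 50 in NSCL61 (60%, against 50.5%). The median difference was 0.11 in NSCL61-sox11 and 0.06 in NSCL61, and 0.23 and 0.07 for the antiviral effectors. Of 5 fibroblast and meningeal markers, array 2 was the higher in 3 in NSCL61-sox11 (median 0.76) and in 5 in NSCL61 (median 0.55); their part in the differences between arrays was not tested.

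**Figure D4:**
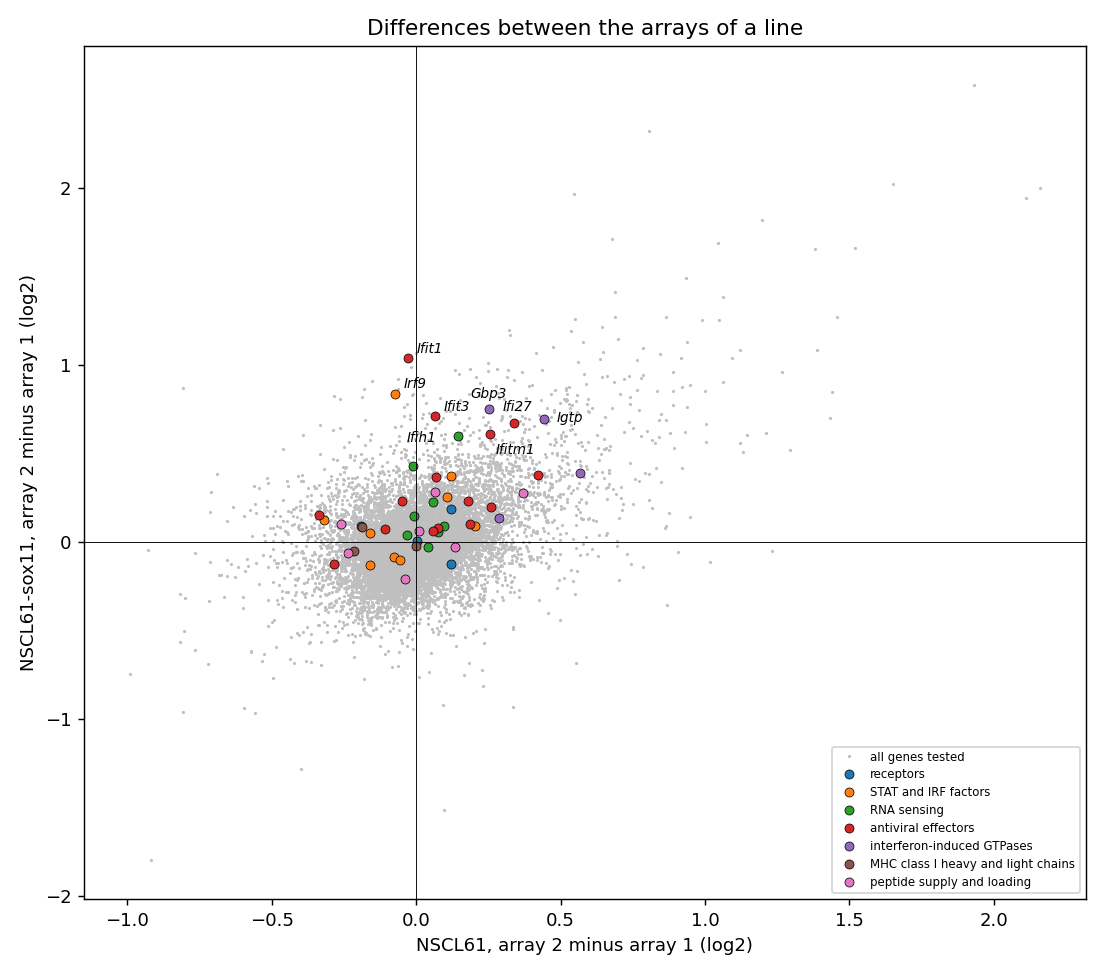
Difference between array 2 and array 1 (log2) within NSCL61 (x axis) and within NSCL61-sox11 (y axis) for the 50 genes, coloured by role, over all tested genes in grey. Names mark the 8 genes with a difference of over 0.5 in NSCL61-sox11, all above the horizontal line at 0; Ifit1 and Irf9 lie near 0 on the x axis, at -0.03 and -0.07.

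Of 115 other genes of these pathways, 98 had a probe set of their own and 77 were tested. Of these, 13 rose (16.9%), 4 fell (5.19%) and 60 did not pass, with a median of 0.11. Over all tested genes 10.0% rose and 9.19% fell. These lists too were chosen with earlier results known, so their shares are descriptions only. Among kinases and feedback genes 3 of 12 rose (25%) and none fell. Jak1, the kinase that both receptor types use, rose from 10.03 and 10.23 to 10.56 and 10.69 (1.41-fold, adjusted p = 0.019), Stat5a rose 2.06-fold (adjusted p = 0.0092) and Stat5b 1.37-fold (adjusted p = 0.036). Of 15 genes of nucleic acid sensing, 1 rose (6.67%), the Toll-like receptor adaptor gene Myd88 (1.31-fold, adjusted p = 0.033).

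A further 27 interferon-induced genes were tested, of which 7 rose (25.9%), 1 fell (3.7%) and 19 missed the threshold, with a median of 0.38. Parp12, an ADP-ribosyltransferase gene, measured 6.24 and 6.53 in NSCL61 and 8.59 and 8.91 in NSCL61-sox11, a 5.17-fold rise (adjusted p = 0.00034). Dtx3l, a ubiquitin ligase gene whose product pairs with Parp9, rose 2.21-fold from 5.75 and 6.54 to 7.09 and 7.48 (adjusted p = 0.032), and the STAT-binding protein gene Nmi rose 1.91-fold (adjusted p = 0.012). Epsti1 fell from 8.51 on both NSCL61 arrays to 7.49 and 7.63 (1.93-fold, adjusted p = 0.0019). The other 4 that rose were Pml, Parp9, Ifi47 and Tdrd7.

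A further 23 genes of MHC and antigen processing were tested, of which 2 rose (8.7%), 3 fell (13%) and 18 missed the threshold, with a median of -0.01. These shares are close to the 10.0% and 9.19% over all tested genes. H2-M3, a non-classical class I gene, rose from 6.06 and 6.08 to 6.95 and 7.15 (1.97-fold, adjusted p = 0.0029), and Erap1, the peptidase that trims peptides in the endoplasmic reticulum, rose 1.41-fold (adjusted p = 0.021). The cathepsin gene Ctsl and the proteasome subunit genes Psma1 and Psmb5 fell by 0.47, 0.34 and 0.29 on the log2 scale (adjusted p = 0.0078, 0.012 and 0.043); Psmb5 is the constitutive counterpart of Psmb8.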

How the data were processed

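Expression was measured in 2 arrays of NSCL61 and 2 of NSCL61-sox11. RNA was labelled with biotin by in vitro transcription, per the labels' protocols. The authors deposited 1 processed log2 value per probe set, made from the scanned probe intensities; the base was inferred from the range of 2.13 to 14.62. Summarisation and normalization are not stated in the labels. The values were used without further scaling. Probe sets were named by the platform annotation, with 34945 carrying 1 symbol; 932 with several and 9160 with none were not named, and RefSeq identifiers updated 0 symbols.

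The lines were compared with limma 3.58.1 (R 4.3.3; two-sided, with eBayes trended on intensity) over the 27022 non-control probe sets in the top 60% by mean, with Benjamini-Hochberg adjustment over all of them and calls under 0.05 (6.36 degrees of freedom). Values beside levels are given per array; SE are moderated. An exact permutation test of 2 against 2 arrays cannot go below p = 0.333. Figures used matplotlib 3.10.9.

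The members and gene lists were chosen with earlier results of these data known. Array values are given for each called gene and for others by role; of the other pathway genes, up to 4 called ones per list with the largest change are given values. Alternatives, 14 in all, covered filter, scaling, variance model, probe set, single arrays and the replicate block. Leaving out single arrays for Ifit1, Ifit3 and Isg20 was added after the values were seen. Of the 58 listed members, 8 were not searched for motifs.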

Additional observations from a re-analysis of the deposited data

How the results depend on the processing

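The 10 rises kept a positive log2 fold change under all 14 alternatives that gave a value, but most of these could not turn the sign. In all 10 genes both NSCL61-sox11 arrays lay above both NSCL61 arrays, so leaving out 1 array keeps it. Filter, intensity trend and block leave the fold change of a probe set as it is. The control scalings shifted the median of all genes by -0.356 and -0.217, less than the smallest rise of 0.41. All 10 were called without a level filter, with median centring, without an intensity trend, with the mean of all tested probe sets and with the replicate block. With quantile normalization, where 19.4% of all genes were called, 8 of the 10 were called. Ifngr1 (adjusted p = 0.053) and Trim21 (0.051) were not. With poly-A scaling 14.9% of all genes were called. The members called were 2 upwards and 3 downwards, their median was -0.249 (all genes -0.375), and the other pathway genes called were 2 upwards and 7 downwards. With hybridisation control scaling 23.2% of all genes were called. Upward calls were 7 members (6 of the 10, and Igtp) and 9 other pathway genes, and downward calls 4 members and 12 other genes. The member median was -0.109 (all genes -0.236). These scalings add 1 offset to all genes of an array, and limma's degrees of freedom rose to 54040, so their p-values are not comparable with the others. Without an intensity trend 15.9% of all genes were called, and 12 other pathway genes rose and 2 fell. With 1 array left out, where the lone array is assumed to vary like the other line, members called ran from 3 to 14 upwards and 0 to 3 downwards, their median from 0.03 to 0.246, and other pathway genes from 5 to 19 upwards and 1 to 6 downwards.

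With the replicate block, 18 members rose and 4 fell, and 31 other pathway genes rose and 13 fell, but 36.9% of all genes were called and the degrees of freedom rose to 40.2. The labels do not say that a number marks a shared culture or day; the differences between array 2 and array 1 correlated at 0.415 between the lines across probe sets, which are not independent replicates. The added upward calls were Eif2ak2, Ifi27, Ifi35, Ifitm3, Igtp, Samhd1, Stat2 and Trim25, and the downward ones Ifit1, Ifit3, Ifitm1 and Isg20.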
